A study of Rattus norvegicus with 9 samples.

Results

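Rat synovial fibroblasts that had received IL-1β and shared a transwell with dermal fibroblasts were compared with synovial fibroblasts given IL-1β alone. The comparison used 6 of the 9 libraries of the series, 3 in each group, and 11372 of the 17298 genes in the deposited table. A gene was included when its FPKM, a level per transcript length and per library, averaged at least 1 over the 9 libraries. All cells carried the WT genotype. One group (IL-1β alone) was in normal culture with the cytokine, and the other (co-culture) had the cytokine and dermal fibroblasts in the upper chamber. When co-culture started is not clear from the labels. Both groups therefore share IL-1β, and the 3 control libraries, in normal culture with no IL-1β, entered only the filter and the estimate of spread. Their levels are given as background. Strain, age, dose and duration are not given in the labels. Nor do the labels state whether cultures without dermal fibroblasts held an empty insert, and a co-culture without IL-1β was not analysed here, so insert, medium and dermal fibroblasts cannot be told apart. Nothing in the labels says that the 3 libraries of a group are separate animals or cultures, and p-values then measure a spread that may be technical.

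IL-1β binds the type 1 interleukin 1 receptor, which signals through MyD88 and the IRAK kinases to the IκB kinase complex and releases the transcription factor NF-κB. Among the targets of NF-κB are cytokines, neutrophil-attracting chemokines, prostaglandin enzymes and the pathway's own inhibitors. Fibroblasts of the synovium, the tissue that lines the joint, are known in arthritis as a source of these mediators and of matrix-degrading proteases. In a transwell the cell types share medium across a porous membrane without touching.

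Markers of the labelled cell type were present in every library. The summed level of 12 fibroblast markers was 18780 to 19458 FPKM with IL-1β alone and 19942 to 20853 FPKM in co-culture. The 10 keratinocyte markers in the table summed to 2.5 to 3.39 FPKM and 3.3 to 4 FPKM, with the desmoglein gene Dsg3 at 0 in all 6 libraries, and the melanocyte and Schwann cell markers to 57.2 to 60.6 FPKM and 61.6 to 63.9 FPKM. The dermal fibroblast list, 14 genes that other fibroblasts can express too, summed to 514 to 529 FPKM with IL-1β alone and to 216 to 229 FPKM in co-culture, so it was lower beneath dermal fibroblasts. Most of that sum with IL-1β alone came from Sfrp2, a secreted Wnt modulator. In control the list summed to 154 to 162.5 FPKM, below co-culture. Of its 10 members that passed the filter, 4 were lower (40%, beside 16.7% of all genes) and 2 higher (20%, beside 33.3%), with a median log2 fold change of -0.071. Macrophage and leukocyte markers summed to 42.9 to 49.6 FPKM and 31.2 to 34.6 FPKM, and the pan-leukocyte gene Ptprc was at 0.04 to 0.09 FPKM. Marker sums of pericytes and smooth muscle were 68.1 to 72.5 FPKM against 149 to 158 FPKM, of chondrocytes 9.86 to 11.3 against 31 to 32.6 FPKM, of adipocytes 701 to 730 against 775 to 800.5 FPKM and of skeletal muscle 8.68 to 9.83 against 20.3 to 21.2 FPKM, with the muscle creatine kinase gene Ckm at 0 in all 6. These are bulk RNA levels, in which fewer cells of a type and less RNA per cell cannot be told apart, and the part of other cell types in the results below was not tested.

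**Figure D1:**
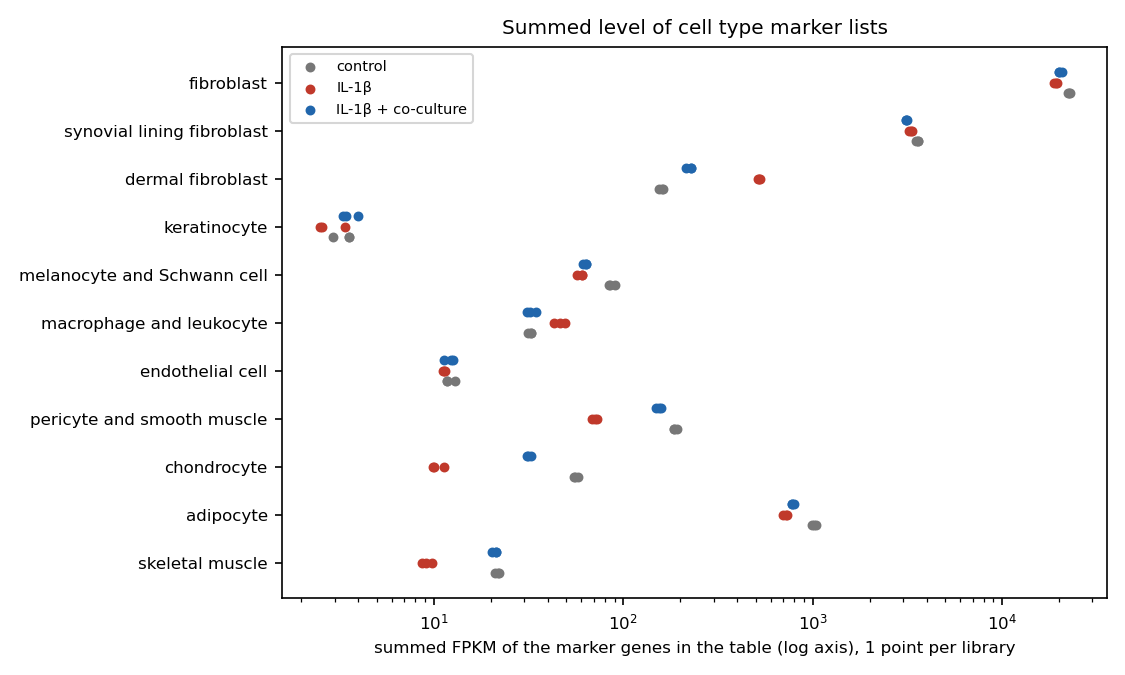
Summed FPKM of each cell type marker list on a log axis, 1 point per library, for control (grey), IL-1β alone (red) and IL-1β with co-culture (blue). The dermal fibroblast list lies at 216 to 229 FPKM in co-culture, at 514 to 529 FPKM with IL-1β alone and at 154 to 162.5 FPKM in control. Keratinocyte markers do not exceed 4 FPKM in any library.

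Of the 11372 genes, 5687 (50.0%) differed between the groups (limma, adjusted p under 0.05), 3786 (33.3%) higher and 1901 (16.7%) lower in co-culture. Large changes ran the other way. On the log2(FPKM + 1) scale, 214 genes (1.88%) were lower by at least 1 and 84 genes (0.739%) higher by at least 1. The log2 fold change over all genes had a median of 0.06, quartiles of -0.08 and 0.20, and a median standard error of 0.05. Higher genes made up 66.6% of the calls as deposited, 50.8% after median-of-ratios scaling (2721 higher, 2636 lower) and 58.3% after quantile normalization (3199 higher, 2289 lower), so small rises depend on the scaling. The 3 libraries of 1 group lay wholly above or below the 3 of the other for 6450 genes (56.7%), with co-culture higher for 4238 (37.3%) and lower for 2212 (19.5%). Counts in the gene lists below are to be read beside the 33.3% higher and 16.7% lower of all genes.

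The 214 strongly lower genes held 8.99 to 9.22% of the FPKM sum of the IL-1β libraries, 2.22 to 2.29% in co-culture and 1.11 to 1.12% in control. The 84 strongly higher genes held 0.488 to 0.508%, 1.14 to 1.19% and 1.51 to 1.57%, in the same order. A filter on the mean admits some genes through 1 group alone: 34 of the 214 averaged below 1 FPKM in both control and co-culture, and 13 of the 84 averaged below 1 FPKM with IL-1β alone. The 34, Csf2, Il23a and Nos2 among them, had to differ in order to be included. The same holds for some genes that averaged little above 1 FPKM in co-culture, Cxcl2 and Tgm2 among them. Of the 13, Lrrc17 and Anxa8 averaged 13.8 and 10 FPKM in control and passed through it, so they did not have to differ. Rises counted below also include genes that averaged below 1 FPKM with IL-1β alone. There was 1 such rise in each of the prostaglandin, collagen, proteoglycan, hyaluronan, contractile, YAP/TAZ, Wnt and mineralization lists. Between 718498 and 741810 FPKM were summed per IL-1β library and between 704391 and 732278 per co-culture library, and the number of reads behind them is unknown.

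**Figure D2:**
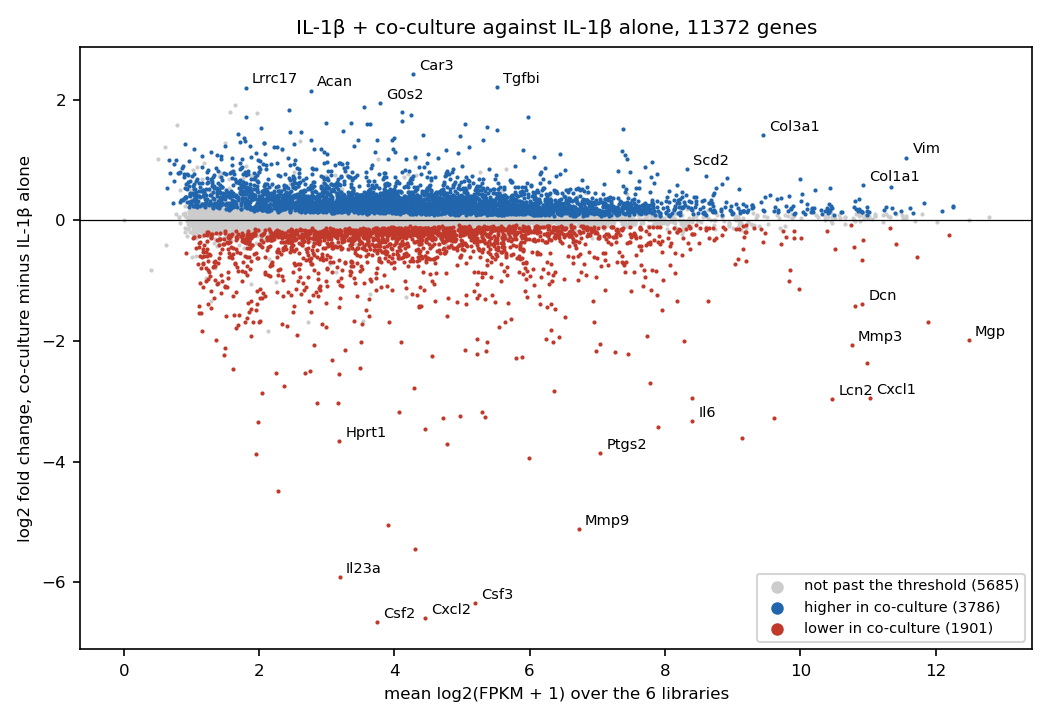
Log2 fold change of co-culture against IL-1β alone (vertical axis) by mean log2(FPKM + 1) over the 6 libraries (horizontal axis), 1 point per gene, for 11372 genes. Genes past the threshold are blue where higher (3786) and red where lower (1901), and the falls reach -6.65 whereas the largest rise is 2.42.

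The largest falls were in secreted signals and inducible enzymes. Csf2, the gene of granulocyte-macrophage colony-stimulating factor, was listed at 137, 127 and 136 FPKM with IL-1β alone and at 0.78, 0.36 and 0 FPKM in co-culture, a log2 fold change of -6.65 ± 0.17 (adjusted p = 3.3e-09). Non-overlap of the groups was a condition for the 15 largest falls and the 15 largest rises, so it is no result for them. Nos2, which encodes inducible nitric oxide synthase, was at 23, 20.4 and 22.2 FPKM against 0.05, 0.03 and 0 FPKM. Both genes were listed at 0 in each control library, and no ratio is given because a 0 without read counts can be a failed estimate. That caution applies to Hprt1, a purine salvage gene often used as a reference, which ranked among the 15 largest falls. It was listed at 29.3, 30.6 and 33.9 FPKM with IL-1β alone, at 0, 0.01 and 15.8 FPKM in co-culture and at 1.21, 2.02 and 4.68 FPKM in control. For Hprt1, 1 co-culture library stood apart. Its adjusted p of 0.037 became 0.00017 without that library, co-culture replicate 3, and lay between 0.054 and 0.11 without any other single library. It was 0.091 when only the 6 libraries were fitted and 0.052 with a pseudocount of 0.1.

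Il23a, the p19 subunit of interleukin 23, fell from 69.5, 66.5 and 74.1 FPKM to 0.18 FPKM in each co-culture library. Cyp7b1, an oxysterol hydroxylase, went from 93.5, 98.3 and 102 FPKM to 6.63, 5.93 and 7.14 FPKM, a 14.9-fold fall (log2 fold change -3.71 ± 0.065). The entry LOC497963 was at 13.5, 14.5 and 13.7 FPKM with IL-1β alone and listed at 0, 0 and 0.05 FPKM in co-culture. These genes were all among the 15 falls, picked for groups that did not overlap.

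The largest rises included matrix, adhesion and muscle genes. Car3, a carbonic anhydrase of fat and muscle, was at 6.5, 7.59 and 8.03 FPKM with IL-1β alone and 44.3, 43.4 and 43.4 FPKM in co-culture, and control libraries were at 67.1, 66.5 and 63.8 FPKM. G0s2, an inhibitor of lipid breakdown, rose from 6, 6.34 and 5.87 to 27.5, 26.1 and 24.8 FPKM, within the range of control at 28.4, 29.7 and 24 FPKM. Gas6, the ligand of the receptor kinase Axl, was the most abundant of the 15, at 35.1, 32.4 and 34.3 FPKM against 113, 117 and 110.2 FPKM. Des, which encodes the muscle filament desmin, rose 3.66-fold, and Cthrc1, a secreted collagen triple helix protein, 3.34-fold. Other rises among the 15 were those of Tgfbi, Lrrc17, Acan, Susd5, Aoc3, Col6a3, Anxa8, Itga6 and 1 of a pair of osteoglycin entries. How reads were divided between that pair is not given, so its value is uncertain. Groups did not overlap for any of the 15, by the way they were picked. The adipocyte marker sum, which holds Car3, and the skeletal muscle marker sum, which holds Des, rose too, in part through these genes.

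**Figure D3:**
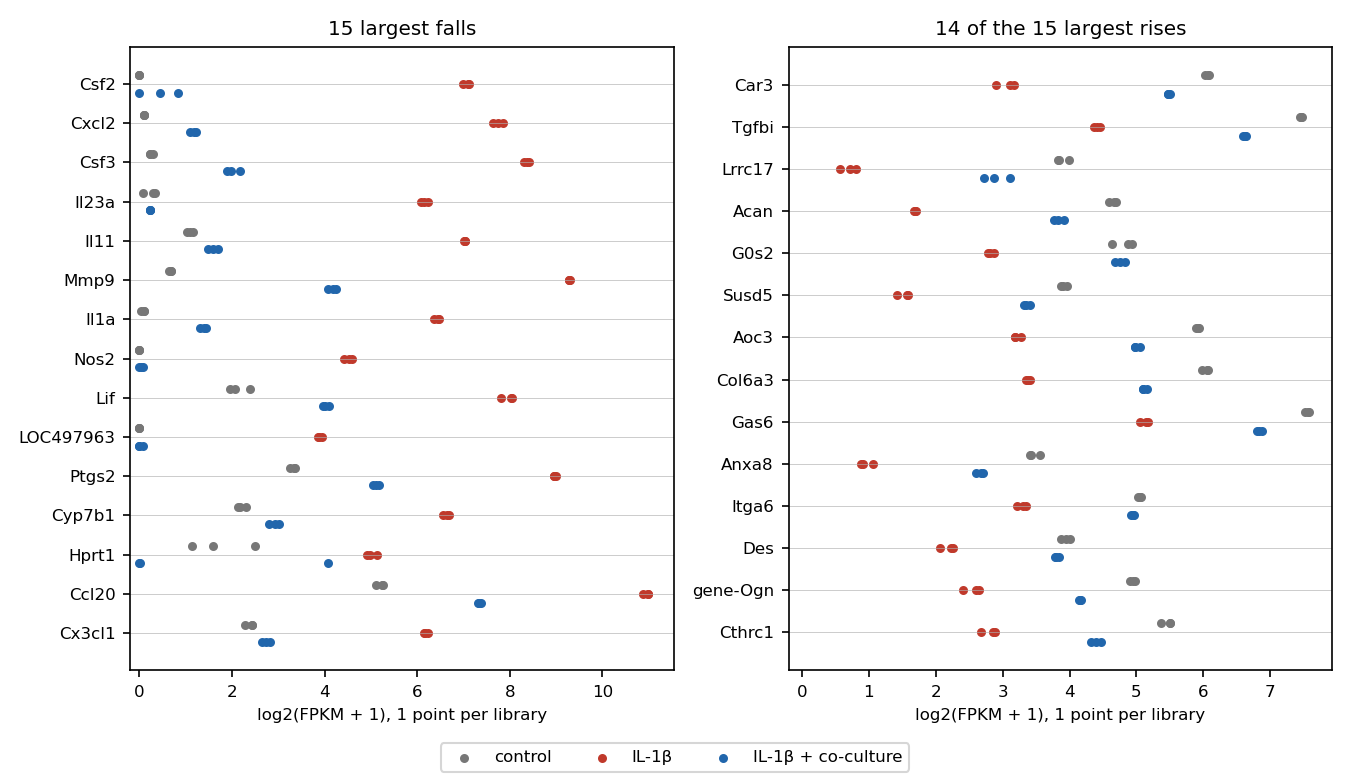
Log2(FPKM + 1) of the 15 genes with the largest falls (left) and 14 of the 15 with the largest rises (right) in co-culture against IL-1β alone, 1 point per library, with control in grey, IL-1β alone in red and co-culture in blue. Rows were picked among genes whose red and blue points do not overlap. In Hprt1 1 co-culture library stands apart, at 15.8 FPKM against 0 and 0.01.

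Of 23 cytokine genes listed, 13 passed the filter, and 10 of these were lower and 1 higher, with a median log2 fold change of -2.2 beside 0.06 for all genes. The 10 that did not pass the filter, among them Tnf and Osm, were too low to test. Of the 10 lower genes, Il23a, Il1b and Tnfsf15, the latter pair named after their values were seen, averaged below 1 FPKM in control and in co-culture. These 3 were included through the IL-1β libraries alone and had to fall, so the count and median do not stand for the list. Il6 fell from 1025, 1073 and 1109 to 105, 104 and 109 FPKM, 10.1-fold. Lif, a relative of IL-6 that uses the same signalling subunit, fell 16.3-fold, from 261, 223 and 264 to 14.6, 16.2 and 15.2 FPKM, and Il11, of the same family, 64.4-fold, from 130.4, 130.3 and 128 to 1.99, 2.25 and 1.8 FPKM. Il1a, which encodes IL-1α, a ligand of the same receptor as the stimulus, was at 81.5, 88.2 and 86.2 FPKM against 1.48, 1.63 and 1.73 FPKM (log2 fold change -5.05 ± 0.056). No IL-1β library overlapped a co-culture library for Il6, while Lif, Il11 and Il1a were among the 15 falls picked without overlap. The exception upward was Tnfsf9, a ligand of the TNF family named after its values were seen, with overlapping groups at 4.7, 3.65 and 4.4 and 5.47, 5.87 and 4.61 FPKM (adjusted p = 0.025). No cytokine gene was called higher after median-of-ratios or quantile scaling, or without IL-1β replicate 2, co-culture replicate 1 or co-culture replicate 2.

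Colony-stimulating factors split by type. The inducible factors Csf2 and Csf3 fell, Csf3 from 329, 339.7 and 315 to 3.54, 2.97 and 2.7 FPKM (107-fold). Csf1, the macrophage factor that fibroblasts make without stimulation, went from 501, 494 and 503 to 420.0, 423 and 425 FPKM, a fall of only 1.18-fold, although the groups did not overlap (adjusted p = 1.6e-05). Kitlg, the stem cell factor gene, rose from 12.3, 12.4 and 13.3 to 17.2, 17.2 and 18.4 FPKM. In all, 3 of the 5 genes were lower and 1 higher (median -0.24), and Csf2 among the 3 had to fall, as given above.

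The neutrophil-attracting chemokines were lower in 4 of 4 genes that passed the filter, of 6 listed, with a median of -3.10. Cxcl2 fell 174-fold, from 199, 230.3 and 214 to 1.13, 1.32 and 1.25 FPKM. At 0.07 FPKM in control, it passed the filter through the IL-1β libraries alone and had to fall. The count and median include this fixed fall. The other members fell less: Cxcl3 from 2282, 2453 and 2565 to 253, 249.8 and 247 FPKM, Cxcl1 from 5556, 5997 and 5828 to 764, 742 and 751 FPKM and Cxcl6 from 4697, 4786 and 4404 to 851, 939 and 893 FPKM. The order of the falls (174-, 9.72-, 7.7- and 5.18-fold) was the reverse of the order of the levels left in co-culture. Summed over the 4 genes, the level went from 12734 to 13467 FPKM down to 1870.1 to 1932 FPKM, and control was at 641 to 681 FPKM.

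Because these chemokines are textbook NF-κB targets, the 250 bases before their transcription starts were searched for the κB letters GGGNN followed directly by TTTCC on both strands. Promoters are those of RefSeq on the rat build GRCr8, in which 376 of 27457 genes (1.37%) held a match and 141 of the 9087 included genes with a sequence (1.55%). A sequence was found for 3 of the 4 chemokine genes and each held a match. With 75% of them matched, no share is compared. The windows below run 5′ to 3′ along the gene with 1 match per gene in capitals, which reads GGAAA then NNCCC where it lies on the opposite strand. Cxcl1, Cxcl2 and Tnfaip3 each held a second match, left in lower case where the window takes it in. They show the chemokines and Il6 and Ccl20, then 3 regulators of NF-κB. Last are Traf3 and Rel, signalling genes that hold the letters and did not pass the test.
Cxcl2: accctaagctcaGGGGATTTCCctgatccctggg
Cxcl1: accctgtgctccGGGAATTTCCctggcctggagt
Cxcl6: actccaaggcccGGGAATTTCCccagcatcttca
Il6: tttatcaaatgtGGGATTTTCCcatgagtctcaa
Ccl20: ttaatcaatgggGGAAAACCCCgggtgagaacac
Nfkbia: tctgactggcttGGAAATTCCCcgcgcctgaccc
Tnfaip3: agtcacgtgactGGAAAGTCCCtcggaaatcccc
Nfkbiz: tctttttggcctGGGAATTTCCagc
Traf3: ctggcggcccgcGGGGATTTCC
Rel: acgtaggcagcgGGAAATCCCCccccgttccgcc
On GRCr8 these lie at chr14:17467308-17467341, chr14:17479384-17479417 and chr14:17596484-17596517 on the minus strand, chr4:5894622-5894655 (minus), chr9:91837058-91837091 (plus), chr6:78597082-78597115 (minus), chr1:15544025-15544058 (minus), chr11:58251696-58251720 (plus), chr6:136027027-136027048 (plus) and chr14:101921998-101922031 (minus). The matches begin 74, 84 and 88 bases before the start in Cxcl2, Cxcl1 and Cxcl6, and 10 bases before it in Traf3. Traf3 was at 7.9, 7.54 and 7.66 FPKM with IL-1β alone and 7.47, 7.02 and 7.07 FPKM in co-culture (adjusted p = 0.13), and Rel at 0.67, 1.15 and 0.9 and 1.29, 1.23 and 0.96 FPKM (adjusted p = 0.17). A match is a description of letters, and the same letters thus stood before a gene that fell 174-fold and before genes that did not pass.

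Among 11 other chemokine genes that passed the filter, of 22 listed, 8 were lower and 1 higher (median -1.3). Ccl20, a lymphocyte and dendritic cell attractant, fell 12.3-fold, from 1891, 2018 and 2027 to 159, 159.8 and 165 FPKM. Cx3cl1, a membrane-bound chemokine, fell from 74.1, 71.1 and 70.1 to 5.28, 5.66 and 6.05 FPKM. The monocyte attractants fell less and stayed abundant, Ccl2 from 6587, 6932 and 6941 to 2169.6, 2078 and 2134 FPKM and Ccl7 from 2833, 2883 and 3053 to 1086, 1084 and 1105 FPKM. Cxcl16 fell 4.12-fold.

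Of 26 cytokine receptor genes, of 34 listed, 14 were lower and 6 higher (median -0.28). The signalling receptor gene Il1r1 fell from 75.9, 76.4 and 77.6 to 41.9, 40.1 and 43.3 FPKM, whereas Il1rl1, the receptor for IL-33 in the same family, rose from 151, 158 and 160.1 to 230.4, 221 and 229.6 FPKM, near control at 228, 222 and 234 FPKM. Neither pair of groups overlapped. Il13ra2, a decoy receptor for IL-13, fell 8.13-fold, from 15.1, 14.8 and 15 to 1.73, 1.77 and 2.02 FPKM. Tnfrsf11b, the osteoprotegerin gene, fell 4.71-fold to 4.8, 4.44 and 4.78 FPKM, and Tnfrsf1a, the main TNF receptor gene, rose 1.24-fold. Il6st, the shared signalling subunit of the IL-6 family, fell from 244, 243 and 252 to 192, 189.6 and 196 FPKM.

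Within NF-κB and IL-1 receptor signalling, 21 of 34 genes were lower and 3 higher, with a median of -0.34, and inducible regulators were among the falls. Tnip3 among the 21, named after its values were seen, passed the filter through the IL-1β libraries alone and had to fall. Map3k8, a kinase that links NF-κB activation to ERK, fell 4.47-fold, from 35.3, 32.1 and 33.4 to 7.45, 7.94 and 7.16 FPKM. The inhibitor gene Nfkbia fell from 89.1, 88.7 and 86.5 to 27.2, 26.1 and 26.8 FPKM. Nfkbiz, of the IκB family, fell from 91.6, 97.9 and 97.9 to 39.3, 39.6 and 38.3 FPKM. Irak3, an inactive IRAK that dampens the receptor, fell from 114, 113 and 112 to 55.6, 56.2 and 55 FPKM. Tnip1, a partner of A20, fell 1.76-fold. Zc3h12a, an RNase that degrades Il6 mRNA, fell from 131, 123 and 123 to 45.7, 47.9 and 43.3 FPKM. Tnfaip3, which encodes A20 and is named for its promoter, fell from 5.38, 5.21 and 5.77 to 1.65, 1.75 and 1.52 FPKM. Tnip2, of the same family as Tnip1 and named after its values were seen, rose 1.35-fold, and Bcl3, of the IκB family and named likewise, had overlapping groups (adjusted p = 0.59). The 10 members that did not pass included the core components Rela, Irak1, Irak4 and Traf6, named after their values were seen, with log2 fold changes of -0.13, -0.05, -0.13 and -0.11 (adjusted p = 0.07, 0.23, 0.1 and 0.2). Some other core components, named likewise, did move. Nfkb1 went from 87.72, 86.74 and 87.72 to 45.76, 45.46 and 45.47 FPKM and Ikbkb from 16.15, 15.58 and 16.05 to 10.19, 10.41 and 9.52 FPKM. Chuk went from 21.17, 20.87 and 21.82 to 17.81, 17.66 and 17.6 FPKM. Myd88 went up, from 16.23, 17.1 and 17.62 to 21.28, 22.35 and 21.2 FPKM.

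Among 19 JAK-STAT and SOCS genes, 7 were higher (36.8%, beside 33.3% of all genes) and 4 lower (21.1%, beside 16.7%), shares near the background (median 0.098). Stat5a, a STAT of growth factor signalling, rose from 6.22, 5.88 and 5.38 to 10.5, 9.11 and 8.51 FPKM and the kinase gene Jak2 fell from 55, 53.4 and 54.1 to 43.2, 44.8 and 44.7 FPKM. Of 21 immediate early genes, 9 rose (42.9%, beside 33.3% of all genes) and 7 fell (33.3%, beside 16.7%), with a median of 0.09. Ier3, an NF-κB-responsive survival gene, fell 4.68-fold, from 381, 378 and 369 to 80.5, 80.4 and 80.4 FPKM, while Klf10, a TGF-β-inducible factor, rose 2.09-fold, from 5.95, 5.8 and 6.55 to 12.2, 13.2 and 13 FPKM. The nuclear receptor genes Nr4a1 and Nr4a2 fell, Nr4a1 by 2.3-fold and Nr4a2 by 2.2-fold. Of 18 MAPK feedback genes, 10 fell and 3 rose (median -0.31), as with Spry4 (2.97-fold lower), Etv4 (2.2-fold) and the phosphatase gene Dusp1 (1.52-fold). Of 16 factors of mRNA decay, 7 fell and 2 rose (median -0.055), the latter being 1 after either scaling, with no filter, with the replicate block, without IL-1β replicate 1 or 2 and without co-culture replicate 2 or 3. The falls were led after Zc3h12a by Zfp36l1, at 77.1, 81.6 and 79.4 FPKM against 44.7, 44.2 and 47.9 FPKM.

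Acute phase and antimicrobial genes fell in the main, 11 of the 14 that passed the filter (of 20 listed) against 2 that rose, or 1 after median-of-ratios scaling (median -1.5). Lcn2, an iron-sequestering protein, fell 7.78-fold, from 4108, 3925 and 3854 to 525, 516 and 488 FPKM, and remained far above control at 38.3, 42.4 and 48.4 FPKM. Slpi, an inhibitor of neutrophil elastase, fell from 556, 596 and 534 to 92.2, 79.5 and 84.6 FPKM. Haptoglobin (Hp) fell 4.53-fold, lipopolysaccharide-binding protein (Lbp) 4.02-fold and the pentraxin gene Ptx3 2.54-fold. Among 13 complement genes, of 23 listed, 9 fell and 2 rose (median -0.33), or 1 without IL-1β replicate 1 or 2 or without co-culture replicate 1. C3, the central component, fell from 276, 254 and 269 to 64.1, 62.3 and 64.5 FPKM and Cfb, of the alternative pathway, from 72.2, 65.4 and 68.3 to 15, 14.8 and 14.4 FPKM, while the classical pathway proteases C1s and C1r fell by 1.38- and 1.3-fold. Macrophage and leukocyte marker sums moved with these groups, as given above, and their part was not tested.

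Among the prostaglandin genes, Pla2g4a, which frees arachidonic acid, fell from 90.3, 89.8 and 97.6 to 29.7, 29.2 and 28.6 FPKM. Ptgs2, the inducible cyclooxygenase, fell 14.9-fold, from 494, 494 and 512 to 33.5, 32.2 and 35.3 FPKM, and Ptges, the inducible prostaglandin E synthase, 7.71-fold, from 948, 918 and 928 to 126, 121 and 116 FPKM. Hpgd, the dehydrogenase that inactivates prostaglandins, rose 2.72-fold, from 7.35, 7.98 and 7.15 to 21.6, 20.2 and 19.3 FPKM. Ptges3, a synthase that cells make constitutively, rose 1.16-fold. The synthesis genes Ptgs1, the constitutive cyclooxygenase, and Ptgis, prostacyclin synthase, named after their values were seen, also rose, by 1.16- and 2.2-fold. Ptgis was at 0.89, 0.4 and 1.03 FPKM with IL-1β alone and 1.59, 2.13 and 1.39 FPKM in co-culture. With co-culture at the IL-1β level it would not have passed the filter, so it had to rise, and the count of rises includes it. Over the list, 8 of 16 genes fell (50%, beside 16.7% of all genes) and 5 rose (31.2%, beside 33.3%), with a median of -0.17. In the nitric oxide list, 6 of 14 fell and 3 rose (median -0.12). Of the 6, Nos2 and Ass1 passed the filter through the IL-1β libraries alone and had to fall. Beside Nos2, the cofactor enzyme Gch1 fell from 14.6, 12.1 and 13.8 to 2.47, 1.95 and 2.97 FPKM and the arginine carrier gene Slc7a2 from 33.3, 32.2 and 34.3 to 12.2, 11.1 and 12.1 FPKM.

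Of 23 proteases that degrade matrix, 9 fell and 4 rose (median -0.02), and the large falls were those of inducible secreted enzymes. Mmp9, a gelatinase, fell 36.5-fold, from 630.4, 617 and 616 to 15.9, 18.1 and 17 FPKM. Mmp13, a collagenase, fell 10.9-fold, from 742, 792 and 805 to 72, 71.8 and 71.1 FPKM, level with control at 72.4, 73.5 and 73.6 FPKM. Mmp3, stromelysin, fell 4.21-fold, from 3515, 3575 and 3578 to 838, 849 and 845 FPKM, and stayed above control at 196, 191 and 199 FPKM. Adamts7 fell from 20.4, 19.6 and 19.5 to 5.13, 5.66 and 5.28 FPKM and Mmp2, the constitutive gelatinase, from 1246, 1218 and 1205 to 690.2, 696 and 679 FPKM. The aggrecanase genes Adamts4 and Adamts5, named after their values were seen, gave log2 fold changes of -0.16 ± 0.094 and -0.03 ± 0.05 (adjusted p = 0.19 and 0.65).

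Of 16 inhibitors of these proteases and plasminogen genes, 8 fell (50%, beside 16.7% of all genes) and 5 rose (31.2%, beside 33.3%), with a median of -0.15. Timp3, an inhibitor bound to matrix, fell from 8.2, 8.63 and 8.65 to 3.44, 3.26 and 3.12 FPKM, below control at 4.51, 4.67 and 4.43 FPKM, and Reck, a membrane inhibitor of metalloproteinases, from 93.8, 94.4 and 100.2 to 57.9, 60.6 and 59.1 FPKM. Timp1 was at 653, 658 and 639 and 648, 611 and 581 FPKM, with overlapping groups (adjusted p = 0.082, but 0.0062 after median-of-ratios scaling and 0.01 without co-culture replicate 1). The plasminogen activator gene Plat fell 7.29-fold, from 223, 218 and 215 to 28.5, 29.9 and 31.5 FPKM, and its inhibitor Serpine2 fell 1.59-fold. Of 20 lysosomal enzymes, 12 fell and 3 rose (median -0.12), or only 1 after either scaling and without IL-1β replicate 3, co-culture replicate 2 or co-culture replicate 3, with the cysteine protease gene Ctsl going up 1.35-fold, from 866, 909 and 912 to 1247, 1199.9 and 1187 FPKM, and Ctsb down 1.28-fold.

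Among 22 collagen genes that passed the filter, 16 rose and 4 fell (median 0.28). Col4a5 among the 16, named after its values were seen, was at 0.82, 0.77 and 0.82 FPKM with IL-1β alone and 1.17, 1.04 and 1.08 FPKM in co-culture. With co-culture at the IL-1β level it would not have passed the filter, so it had to rise. Chains of type VI collagen, which forms a network around cells, rose, Col6a3 from 9.43, 9.2 and 9.65 to 33.3, 33.4 and 34.7 FPKM and Col6a1 from 112, 106 and 110.3 to 245, 247 and 241 FPKM. Col11a1, a collagen of cartilage fibrils, rose 2.73-fold, from 18.4, 18.1 and 18.3 to 50.4, 48.8 and 50.5 FPKM. Of the abundant fibrillar chains, Col3a1 rose from 432, 421 and 422 to 1158, 1148 and 1116 FPKM and Col1a2 from 427, 343 and 366 to 621, 649 and 584 FPKM. The 4 lower genes, named after their values were seen, were Col4a1 and Col4a2 of basement membranes (-0.87 and -0.74 on the log2 scale), Col8a1 (-0.62) and Col18a1 (-0.36).

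Of 23 genes that fold and link collagen, 13 rose and 5 fell (median 0.14). The chaperone gene Serpinh1 rose from 1033, 989.7 and 964 to 1417, 1418 and 1417 FPKM. Within the lysyl oxidases, Loxl3 rose 2.1-fold, from 46.4, 44.8 and 45.5 to 97.8, 95.7 and 93.7 FPKM, whereas Lox fell from 929, 970.0 and 993 to 721, 733 and 739 FPKM. Tgm2, a transglutaminase, fell 5.09-fold to 0.99, 0.93 and 1.16 FPKM, but it passed the filter through the IL-1β libraries alone and had to fall. The prolyl hydroxylase subunit gene P4ha2 fell 1.62-fold.

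Proteoglycans went in opposite directions. Over the list, 10 of 18 genes rose and 5 fell (median 0.25). Acan, the aggrecan gene of cartilage, rose 5.99-fold, from 2.26, 2.2 and 2.21 to 13.2, 14.2 and 12.6 FPKM, and Cspg4 2.43-fold. Of the small leucine-rich proteoglycans, Dcn (decorin) fell 2.6-fold, from 3003, 3223 and 3112 to 1185, 1203 and 1201 FPKM, and Lum (lumican) 1.58-fold, whereas Bgn (biglycan) was at 1813, 1773 and 1731 and 1767, 1803 and 1786 FPKM, with overlapping groups (adjusted p = 0.79). Chondrocyte marker sums, which hold Acan, rose in part through it, and the part of chondrocytes was not tested.

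Among 30 elastic fibre and matricellular genes, 20 rose and 5 fell (median 0.21). Tgfbi, a TGF-β-induced adhesion protein, rose 4.8-fold, from 20.3, 20.9 and 19.5 to 95.8, 97.1 and 98.7 FPKM, and Thbs1 and Spp1 rose 1.33- and 1.31-fold. Tnc (tenascin C) fell from 358, 346 and 358 to 176, 175 and 180.1 FPKM and Postn (periostin) from 93.3, 96.7 and 97.9 to 53.8, 54.6 and 54.7 FPKM. Fn1, the fibronectin gene, was at 2442, 2328 and 2419 and 2379, 2352 and 2365 FPKM, with overlapping groups (adjusted p = 0.63, 0.031 after median-of-ratios scaling). Among 17 hyaluronan and lining genes, 9 fell (52.9%, beside 16.7% of all genes) and 6 rose (35.3%, beside 33.3%), with a median of -0.34. Prg4, the joint lubricant gene, fell 2.13-fold, from 301, 297 and 294 to 137, 141 and 142 FPKM, the hyaluronan receptor gene Cd44 1.92-fold and the hyaluronidase gene Tmem2 2.3-fold.

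**Figure D4:**
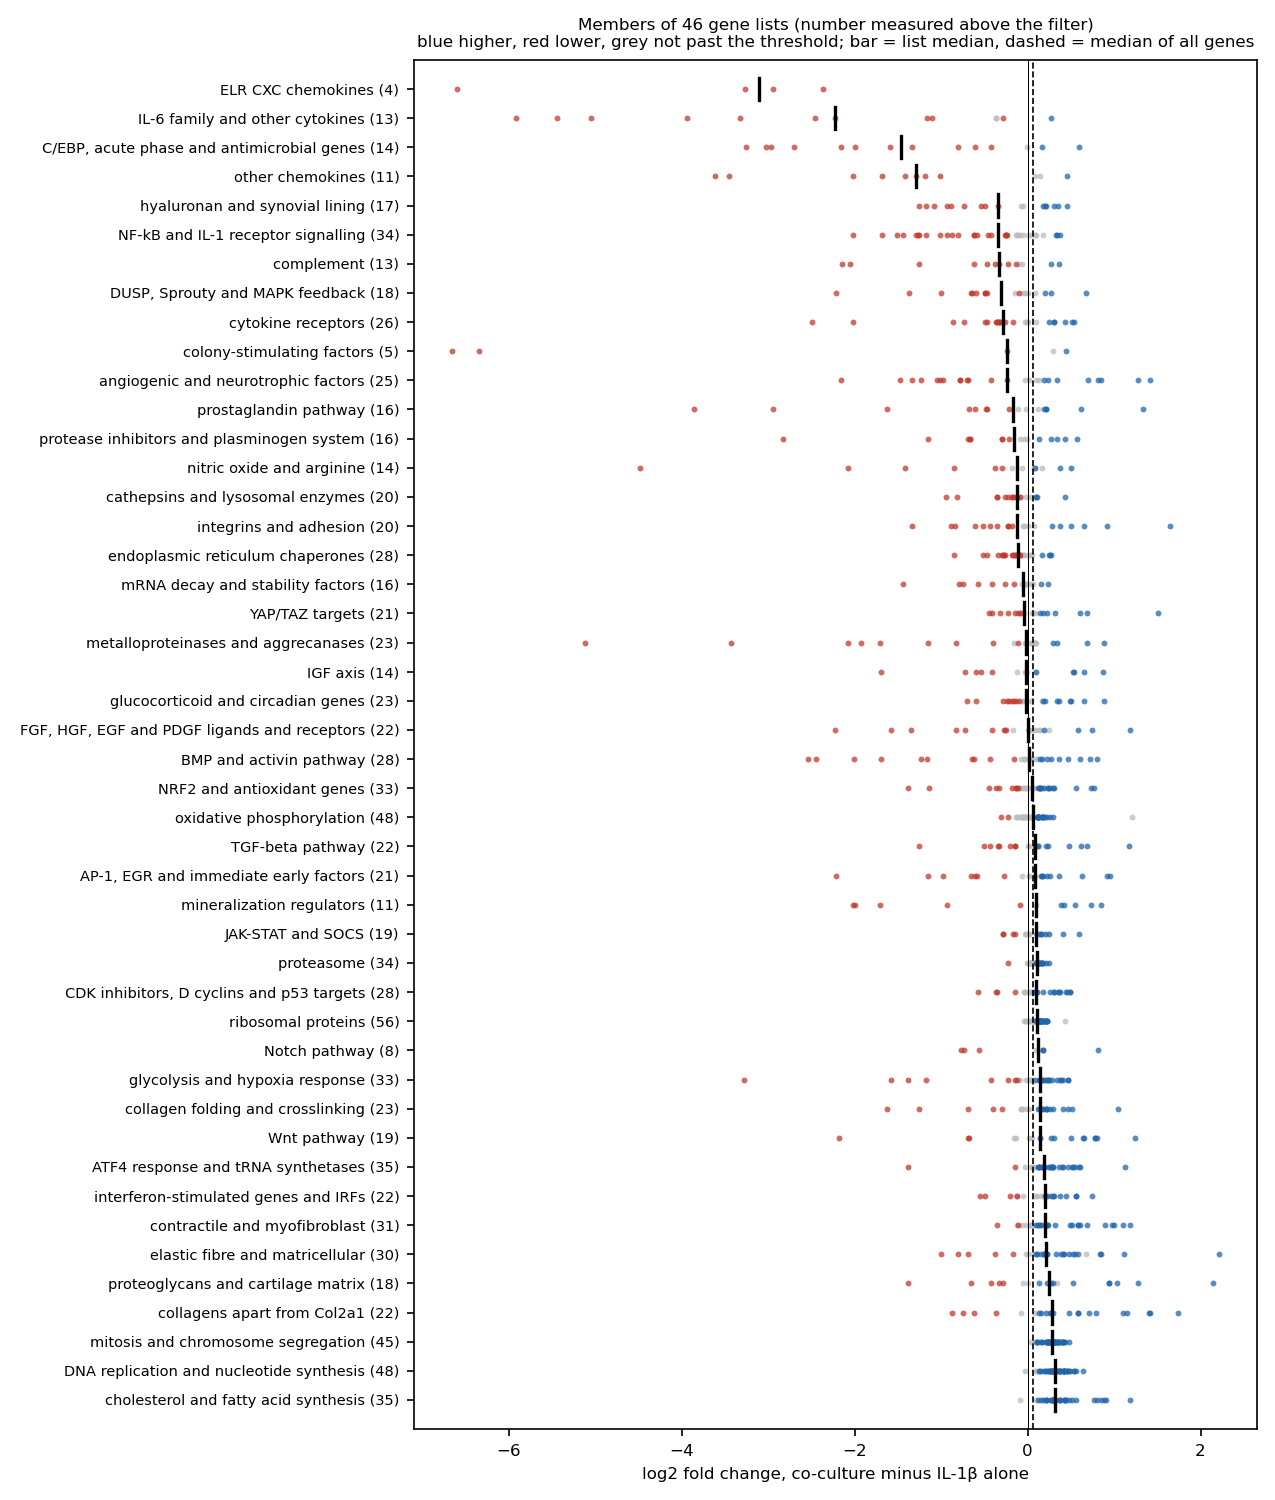
Log2 fold change of every member of 46 gene lists that passed the filter, co-culture minus IL-1β alone, with blue for higher, red for lower and grey for genes not past the threshold. Short bars mark list medians, which run from -3.10 (neutrophil-attracting chemokines) to 0.32 (DNA replication, and cholesterol and fatty acid synthesis), and the dashed line is the median of all genes at 0.06.

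Among 31 contractile genes, 20 rose and 2 fell (median 0.20), or 4 after median-of-ratios scaling. Acta2, smooth muscle actin, rose from 59.9, 57.5 and 59.5 to 129, 131 and 123 FPKM, Tagln (transgelin) from 149.6, 154 and 154 to 295, 278 and 279 FPKM and Vcl (vinculin) from 29.1, 28.4 and 29.8 to 46.8, 47.5 and 47.9 FPKM. Tagln in co-culture lay near control, 290.5, 291 and 297 FPKM. The marker sum of pericytes and smooth muscle, which holds Acta2 and Des, moved with this list. A pair of secreted targets of the YAP and TAZ coactivators moved apart within a list of 21 with 7 rises (33.3%, as in all genes) and 7 falls (median -0.037). Ctgf rose 2.86-fold, from 102, 97.5 and 95.7 to 275, 286 and 281 FPKM, and Cyr61 fell 1.11-fold, from 220.1, 209 and 204 to 189.8, 191 and 188 FPKM.

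Among 20 integrins and adhesion genes, 10 fell (50%, beside 16.7% of all genes) and 6 rose (30%, beside 33.3%), with a median of -0.12. The laminin receptor subunits were opposed, with Itga6 rising 3.39-fold, from 8.3, 9.22 and 8.86 to 29.8, 30.2 and 29.4 FPKM, and Itga7 falling 3.67-fold, from 5.2, 4.22 and 5.18 to 1.37, 1.34 and 1.27 FPKM. The partner subunit gene Itgb1 was at 528, 541 and 564 and 541, 543 and 559.7 FPKM, with overlapping groups (adjusted p = 0.83). Ncam1, a neural adhesion molecule, rose 2-fold and Itgb5 1.43-fold.

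TGF-β ligands differed by isoform. Tgfb3 rose 2.33-fold, from 17.5, 16.9 and 16.9 to 40.9, 40.2 and 38.4 FPKM, and Tgfb2 1.71-fold, from 5.97, 6.07 and 6.22 to 10.8, 9.59 and 10.9 FPKM, whereas Tgfb1 fell 1.15-fold, from 69.8, 70.2 and 65.8 to 58.8, 62.9 and 57.5 FPKM. The coreceptor gene Tgfbr3 and the inhibitory Smad6 rose by 1.42- and 1.58-fold. Over the pathway 9 of 22 genes rose (40.9%, beside 33.3% of all genes), or 5 after median-of-ratios scaling, and 8 fell (36.4%, beside 16.7%), with a median of 0.089.

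Among 28 BMP and activin genes, 10 fell (35.7%, beside 16.7% of all genes) and 9 rose (32.1%, beside 33.3%), with a median of 0.022. The 3 named ligand genes fell, Bmp2 from 23.2, 19.5 and 19.9 to 2.94, 2.17 and 3.21 FPKM, Bmp6 from 27, 23.2 and 26 to 3.78, 3.4 and 4.42 FPKM and Inhba, the activin A subunit, from 77.2, 80.9 and 87.6 to 19.3, 18.8 and 20.5 FPKM. The antagonist genes Fst and Grem1 fell as well, by 2.24- and 1.56-fold. Id3, a target of BMP signalling, rose from 749, 706 and 680.3 to 929.7, 943 and 866 FPKM, the opposite direction to these ligands.

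Wnt modulators of one family also parted. Sfrp2 fell 4.59-fold, from 327, 329.8 and 319 to 69.6, 73.7 and 69.4 FPKM, while Sfrp4 rose from 5.25, 6.33 and 6.07 to 15.9, 15 and 14.6 FPKM and Sfrp1 from 7.78, 7.84 and 8.52 to 14.4, 14.8 and 15.1 FPKM. Among the receptors, Fzd1 fell 1.62-fold and Fzd2 rose 1.74-fold. Of 19 genes that passed the filter, of 39 listed, 10 rose and 3 fell (median 0.15). Sfrp2 and Sfrp4 were both on the dermal fibroblast marker list.

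Several growth factors for epithelium and vessels fell. Of the FGF, HGF, EGF and PDGF genes, 8 of 22 fell and 4 rose (median 0.01). Ereg, an EGF receptor ligand, fell 4.9-fold, from 80.9, 73.1 and 84.7 to 15.5, 16.4 and 16.8 FPKM. The paracrine factors Hgf, Fgf10 and Fgf7, which act on epithelial cells, fell 3.31-, 2.6- and 1.66-fold, Fgf7 staying at 396, 407 and 414 FPKM. Among 25 angiogenic and neurotrophic genes, 13 fell (52%, beside 16.7% of all genes) and 8 rose (32%, beside 33.3%), with a median of -0.24. Of the 13, 2 averaged below 1 FPKM in control and in co-culture and so had to fall. The angiopoietin-like genes differed, Angptl4 falling from 138, 136 and 139 to 49.3, 48.6 and 49.1 FPKM and Angptl2 rising from 13.1, 11.3 and 11.8 to 34.5, 35 and 32.6 FPKM. Vegfa fell 1.35-fold and the vasodilator gene Adm 2.54-fold.

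In the IGF axis, 5 of 14 genes rose (35.7%, near the background) and 5 fell (median -0.014). The ligand Igf1 rose from 41.5, 39.5 and 42.4 to 66.1, 64.5 and 65.8 FPKM and the binding protein gene Igfbp6 from 56.2, 51.2 and 55.8 to 103, 98.9 and 99.5 FPKM. Stc1, an inhibitor of the protease that frees IGF, fell 3.26-fold, from 214, 226 and 224 to 65.7, 69.2 and 68.8 FPKM, and Igfbp7 fell 1.51-fold.

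Sterol and fatty acid synthesis genes moved in 1 direction. Of 36 genes listed, 35 passed the filter and 33 of these were higher, 0 lower, with a median of 0.32 beside 0.06 for all genes. The fatty acid desaturase genes rose, Fads1 from 39.3, 39.3 and 39.1 to 75.1, 74.2 and 73.6 FPKM and Scd2 from 236, 236 and 239.9 to 425, 427 and 428 FPKM. Acss2, which makes cytosolic acetyl-CoA, rose 1.9-fold. In the cholesterol branch, Hmgcs1 rose from 93.4, 91.6 and 96.2 to 139.9, 137 and 138 FPKM and Fdps 1.22-fold. None of these 5 genes had overlapping groups, and each co-culture level was below the control level, as with Scd2 at 613, 590.3 and 594 FPKM. Adipocyte marker sums moved with this list.

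In the hypoxia and glycolysis list, 18 of 33 genes rose and 8 fell (median 0.14). Egln3, a prolyl hydroxylase that marks hypoxia-inducible factors for destruction, fell 10.8-fold, from 83, 79.9 and 79.2 to 7.07, 8.03 and 7.23 FPKM. Epas1, which encodes such a factor (HIF-2α), fell from 50.3, 45.1 and 44.7 to 15.2, 14.2 and 15.3 FPKM, and the lactate carrier gene Slc16a1 from 265, 262 and 280.3 to 120.1, 118 and 119 FPKM. The abundant glycolytic enzymes changed little, Gapdh rising 1.17-fold and Eno1 1.11-fold.

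Stress programmes did not move together. Among 35 genes of the ATF4 amino acid response and tRNA synthetases, 26 rose and 2 fell (median 0.19). Phgdh, the entry enzyme of serine synthesis, rose 2.31-fold, from 10.3, 9.35 and 9.92 to 23.5, 23.1 and 21.6 FPKM, and Psat1 and Aldh1l2 rose 1.48- and 1.55-fold. The cystine carrier gene Slc7a11 was an exception and fell from 5.13, 5.19 and 5.59 to 1.38, 1.51 and 1.35 FPKM. Atf4 itself was at 282, 277 and 276 and 275, 279 and 265 FPKM (adjusted p = 0.45, 0.017 after median-of-ratios scaling). Endoplasmic reticulum chaperones went the other way, with 15 falls and 4 rises among 28 (median -0.11), as with Dnajb9, at 25.7, 28.5 and 29.1 against 14.9, 14.4 and 15.4 FPKM, and Hspa5, at 945, 975 and 991 against 807, 796 and 797 FPKM. Among 33 antioxidant genes, 14 rose (42.4%, beside 33.3% of all genes), or 9 after median-of-ratios scaling, and 9 fell (27.3%, beside 16.7%), with a median of 0.052. Sod2, the mitochondrial superoxide dismutase, fell from 1474, 1517 and 1522 to 686, 682 and 683 FPKM and Nqo1, a quinone reductase, rose from 179.7, 175 and 183 to 309, 307 and 299 FPKM. The ferritin chains parted, light chain Ftl1 up 1.48-fold and heavy chain Fth1 down 1.26-fold.

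Genes of proliferation rose by small and even amounts. Of 48 DNA replication genes 44 rose and 0 fell (median 0.32), and of 45 mitotic genes 43 rose and 0 fell (median 0.28). Groups did not overlap for 43 and 42 of them, beside 37.3% of all genes that lay wholly higher in co-culture. Tk1, thymidine kinase, rose from 87.7, 86.6 and 83.5 to 127, 126 and 122 FPKM, Uhrf1, a factor of DNA methylation maintenance, from 30.1, 29 and 30.5 to 43.4, 44.3 and 43.4 FPKM and Mcm5, of the replicative helicase, from 38.6, 37.9 and 39.5 to 54, 53.7 and 52.3 FPKM. Among mitotic genes Cdc20, an activator of the anaphase-promoting complex, rose from 97.8, 88.8 and 94.6 to 131, 135 and 129 FPKM and Kif20a, a kinesin of cytokinesis, 1.34-fold. For all 5 the groups did not overlap, and co-culture lay above control too, as with Tk1 at 109, 109 and 108 FPKM, a difference that was not tested here. The kinase gene Cdk4 rose 1.36-fold within a list of cell cycle brakes and p53 targets in which 14 of 28 rose and 4 fell (median 0.1).

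E2F factors drive replication genes through the letters TTTCCCGC or TTTGGCGC, which were searched on both strands of the same 250-base windows. A promoter sequence was found for 39 of the 48 replication genes, and 9 of these (23.1%) held a match, beside 2.83% of the included genes and 1.34% of all genes in the table. One match per gene is in capitals below, in its reverse complement where it lies on the opposite strand. The 4 genes shown all rose and include a pair of subunits of the replicative helicase.
Mcm5: cccaggttggttTTTCCCGC
Mcm6: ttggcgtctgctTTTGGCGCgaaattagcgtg
Tyms: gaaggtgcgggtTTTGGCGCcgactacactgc
Uhrf1: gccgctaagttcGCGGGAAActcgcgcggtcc
They lie at chr19:13488793-13488812 (plus strand), chr13:42404472-42404503 (minus), chr9:120776101-120776132 (minus) and chr9:1222981-1223012 (plus) on GRCr8. Mcm6, a helicase subunit, rose 1.35-fold and Tyms, thymidylate synthase, 1.5-fold, both named for their sequence. The letters for the sterol response element (TCACNCCAC) were in 0 of the 25 cholesterol and fatty acid genes with a sequence, of 35, beside 1.09% of all genes. With only 71.4% of them matched that check is void, and it says only that these letters are not in these windows.

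**Figure D5:**
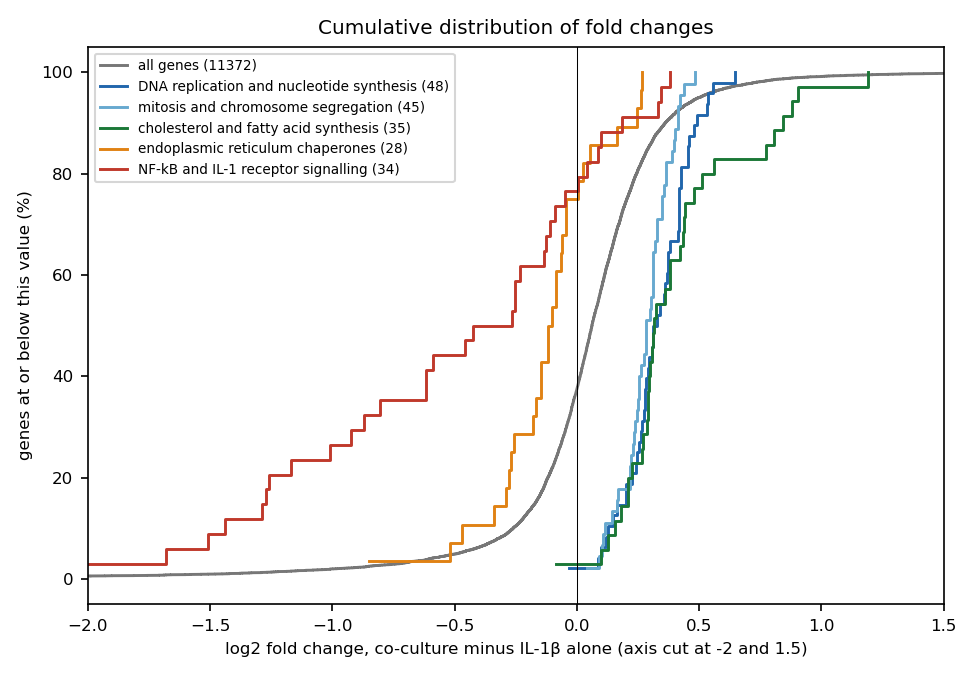
Cumulative share of genes (vertical axis, %) by log2 fold change of co-culture against IL-1β alone (horizontal axis, cut at -2 and 1.5), for all 11372 genes (grey) and 5 lists. Replication, mitosis and cholesterol curves lie to the right of the curve of all genes, with medians of 0.32, 0.28 and 0.32 against 0.06, and the NF-κB list reaches far to the left with a median of -0.34.

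Calls in housekeeping groups depended on the scaling. Of 56 ribosomal protein genes 26 rose and 0 fell as deposited (median 0.11), but 9 rose after median-of-ratios scaling, 16 without IL-1β replicate 1 and 15 without co-culture replicate 1. Rpl15 was at 321, 321 and 317 and 383, 383 and 359 FPKM. Of 34 proteasome genes 16 rose and 1 fell (median 0.1), but 4 rose after median-of-ratios scaling and 10 without IL-1β replicate 1. Of 48 oxidative phosphorylation genes 17 rose and 2 fell, with a median equal to that of all genes (0.06), while 8 rose and 6 fell after that scaling, and 5 fell without co-culture replicate 1. The 17 of 48 is close to the background of 33.3% higher among all genes.

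Regulators of hormone response, Notch and mineral were also split. In the glucocorticoid and circadian list 9 of 23 genes fell and 8 rose (34.8%, near the background), with a median of -0.013. The receptor gene Nr3c1 fell from 39.6, 41.9 and 42.7 to 25.2, 24.5 and 25.5 FPKM and Hsd11b1, which regenerates active glucocorticoid in cells, from 124, 126 and 136 to 85.6, 86.3 and 83.1 FPKM, while the clock repressors Bhlhe40 and Bhlhe41 rose 1.44- and 2.41-fold. Nr3c1 in co-culture was near control at 25.9, 24.6 and 25.9 FPKM. Of 8 Notch genes 3 fell and 3 rose (37.5%, beside 33.3% of all genes), or 1 rose after either scaling and without IL-1β replicate 1 or 3 or co-culture replicate 2 or 3 (median 0.12). Among them were the effector Rbpj, at 180.0, 178 and 194 against 109, 108 and 113 FPKM, and the modifier Lfng, which rose 1.79-fold. Of 11 mineralization genes 5 fell and 5 rose (median 0.095). Mgp, a calcification inhibitor and the most abundant gene of the IL-1β libraries, fell from 11684, 11592 and 11064 to 2981, 2889 and 2783 FPKM, and its share of the FPKM sum went from 1.49 to 1.63% down to 0.393 to 0.41%. Enpp2, autotaxin, fell 3.96-fold.

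Of 22 interferon-stimulated genes 10 rose (45.5%, beside 33.3% of all genes) and 4 fell (18.2%, beside 16.7%), with a median of 0.20, and none changed by as much as 1 on the log2 scale. The number that fell was 2 without control replicate 2, IL-1β replicate 2 or 3, or co-culture replicate 2 or 3. The immunoproteasome gene Psmb9 rose from 10.4, 10.2 and 9.18 to 14, 15.2 and 16.2 FPKM and the GTPase gene Igtp 1.65-fold, whereas B2m, the light chain of MHC class I, fell from 223, 251 and 236 to 169, 163 and 172 FPKM and Ifi27 1.46-fold. The lists described here held 97 of the 214 strongly lower genes and 27 of the 84 strongly higher genes.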

How the data were processed

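RNA sequencing libraries of rat synovial fibroblasts were analysed from a table of FPKM values that the authors deposited, with 1 column per library. The submitters' processing notes name the build GRCm38, a mouse build, whereas 16152 gene IDs (93.4%) matched rat RefSeq genes, so no coordinates were taken from the table. For aligner and quantifier, nothing is given in the sources used here. Depth is unknown: among 102 low genes only 27.4% of values lay within 0.05 of whole multiples of the smallest, so reads could not be recovered. Precision is therefore given by the spread over 3 libraries per group.

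Values were transformed to log2(FPKM + 1), and genes averaging at least 1 FPKM over 9 libraries were kept. limma 3.58.1 in R 4.3.3 fitted 1 mean per group to all 9 libraries, with a variance trend and robust moderation and Benjamini-Hochberg adjustment over 11372 genes. A fold in the text is a ratio of group mean FPKM. Log2 fold changes, given with their standard errors, are on the log2(FPKM + 1) scale and understate changes of low genes. The fit was tested on simulated data with 200 changed genes. For 40 genes every library had the same value as for another entry, and such entries cannot be told apart.

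Named genes were the 15 largest falls and 15 largest rises without overlap between groups, and from each list the 4 with the smallest p, the 3 most abundant and any listed at 0 throughout a group. Members and lists were chosen with earlier results of these data known. Promoter sequences came from RefSeq (GRCr8), found for 9087 genes (79.9%), and each motif was searched on both strands. Alternatives were 2 pseudocounts, 2 filters, 2 scalings, the 6 libraries alone, a replicate block, no variance trend and leaving out each library. Some genes are not reported here.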

Additional observations from a re-analysis of the deposited data

How the results depend on the processing

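No named gene that passed the threshold changed direction under the alternatives run. The 3786 higher and 1901 lower genes became 3316 to 3765 and 1668 to 1895 without 1 library, 3639 and 1833 with the 6 libraries alone, and 3804 and 2075 without a filter. The 84 rises and 214 falls of at least 1 (log2) became 81 to 86 and 203 to 215 without 1 library. With a pseudocount of 0.1 they were 165 and 259, because a smaller pseudocount enlarges the changes of low genes. Of the 275 named genes, calls were lost by 10 under median-of-ratios scaling (and gained by 7), by 6 under quantile normalization (gained by 6), by 6 with the 6 libraries alone and by 0 with a pseudocount of 0.5. Counts within some lists moved as given beside them, and a filter at 5 FPKM shortened the lists. Replicate numbers did not pair the samples: deviations of same-numbered libraries correlated at 0.03, 0.0031 and 0.09. With the replicate number as a block, 3795 genes were higher and 1913 lower, and 1 named gene, Calr, lost its call (adjusted p = 0.052). Without read counts, the precision of genes near 1 FPKM cannot be set by depth.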
